A study of Mus musculus with 4 samples.

Results

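The genes described here are 35 genes of the unfolded protein response and of protein entry into the endoplasmic reticulum (ER), chosen by name from the symbols of the FPKM tables. All 35 were found, each on 1 row, among the 23700 rows of each table, and 34 of them reached the level for testing, as did 11074 rows in all. RNA came from helper T cells of the spleen of C57BL/6 mice aged 43 weeks. The libraries KO 1 and KO 2 are labelled RIPK1-KO, which the series design describes as a knockout specific to T cells. The libraries WT 1 and WT 2 are labelled wild type. All 4 titles also carry the word Ctrl, which the labels do not explain. RIPK1 is a kinase and scaffold of TNF receptor signalling that takes part in NF-kB activation and in cell death. The labels name neither the Cre line nor the deleted exons. Nor do they state whether each library had a mouse of its own, so the spread behind every p-value is that among 4 libraries and may be technical.

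Secreted and membrane proteins enter the ER through the SEC61 channel, where they are folded, given sugar chains and joined by disulfide bonds. When folding falls behind, the sensors IRE1 (gene Ern1), PERK (Eif2ak3) and ATF6 start the unfolded protein response. IRE1 splices the Xbp1 mRNA so that it codes for an active transcription factor, PERK lowers translation, and ATF6 is cut free to act in the nucleus. Their target genes code for chaperones, oxidoreductases and the machinery that returns misfolded proteins to the cytosol for degradation. In lymphocytes the XBP1 branch is best known from antibody-secreting plasma cells.

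Some of the genes share promoter letters of elements named for ER stress. The genes were chosen by name for that response, so a share above that of all genes is no independent result. RefSeq promoters (GRCm38.p6, 250 bases before to 50 after a start) were at hand for 29 of the 35 genes and were searched on both strands for 3 elements; Atf6, Hyou1, Manf, Derl1, Sec61a1 and Ssr2 had no entry. These were the ER stress response element (ERSE, CCAAT and CCACG with 9 bases between them), ERSE-II (ATTGG and CCACG with 1 base between them) and the core of the UPR element (TGACGTGG). The ERSE letters were found in 6 of the 29 genes (20.7%), against 37 of all 27025 genes with a promoter (0.137%). ERSE-II was found in 1 of the 29 (3.45%), against 12 of the 27025 (0.0444%). The UPR element core was found in 0 of the 29 genes, against 193 of the 27025 (0.714%). Among other genes of the pathway, listed below, it was found in 7 of 57 (12.3%). A match is a description of letters and not of binding. The 7 promoter stretches with a match are shown because chaperone, isomerase and degradation genes described below share them. They run along the gene, 5′ to 3′, with the fixed letters of the element in capitals. CGTGG before ATTGG marks an ERSE on the opposite strand.
Calr (chr8:84847050-84847118, - strand): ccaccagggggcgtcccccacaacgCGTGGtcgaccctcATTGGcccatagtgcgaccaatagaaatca
Canx (chr11:50325775-50325843, - strand): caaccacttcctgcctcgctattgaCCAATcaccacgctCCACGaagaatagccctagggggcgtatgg
Pdia6 (chr12:17266466-17266534, + strand): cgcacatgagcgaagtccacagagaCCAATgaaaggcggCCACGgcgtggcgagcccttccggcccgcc
Creld2 (chr15:88819495-88819563, + strand): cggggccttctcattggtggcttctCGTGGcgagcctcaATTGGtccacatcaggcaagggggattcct
Syvn1 (chr19:6046507-6046575, + strand): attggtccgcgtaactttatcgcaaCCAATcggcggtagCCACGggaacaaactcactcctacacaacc
Derl3 (chr10:75893217-75893285, + strand): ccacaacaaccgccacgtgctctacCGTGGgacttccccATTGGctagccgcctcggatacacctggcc
Herpud1 (chr8:94386352-94386412, + strand): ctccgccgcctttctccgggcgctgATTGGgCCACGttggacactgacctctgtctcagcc

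FPKM counts fragments per length of a transcript and per mapped total of a library, so levels of different genes can be set side by side. The depth, estimated from low FPKM values, was about 17200000 and 18800000 fragments in KO 1 and KO 2, and 20900000 and 21600000 in WT 1 and WT 2. Ripk1, the targeted gene, stood at 10.4 and 9.54 FPKM in KO 1 and KO 2, against 5.61 and 5.60 FPKM in WT 1 and WT 2. As deposited, libraries labelled KO thus held more of it than wild type, which goes against the label. However, 1 value per gene cannot show a loss of single exons. All directions below are those of the libraries so labelled. Rows were tested with limma on log2(FPKM + 1) and called at a Benjamini-Hochberg adjusted p of 0.05. As deposited, 2832 of the 11074 tested rows (25.6%) were called higher in the libraries labelled KO and 111 (1.0%) lower, and the median row was higher by 0.38 on the log2 scale. After trimmed-mean scaling, which sets the middle of the ratios between libraries to no change, 513 rows (4.63%) were called higher and 573 (5.17%) lower, and the median row stood at -0.01. Changes below are therefore also given relative to the median row. WT 1 weighed on these counts: without it 9 rows were called higher and 0 lower as deposited. For Ripk1 the log2 change was 0.73 as deposited (limma adjusted p = 0.0262), 0.35 above the median row. It was not called after trimmed-mean scaling (log2 change 0.31, limma adjusted p = 0.222) or quantile normalization (0.28, limma adjusted p = 0.257). Helper T cell markers were abundant in all libraries, and 3 of 6 were called higher as deposited (1 higher and 1 lower after trimmed-mean scaling). Cd4, the marker with the largest rise, was at 211 and 185 FPKM in KO 1 and KO 2 and at 86.3 and 87.3 FPKM in WT 1 and WT 2. Cd3d was lower, at 175 and 169 FPKM in KO 1 and KO 2, against 185 and 238 FPKM in WT 1 and WT 2. Cd3g overlapped, at 356 and 332 FPKM in KO 1 and KO 2 and at 262 and 362 FPKM in WT 1 and WT 2.

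Of the 34 tested ER genes, 6 were called higher as deposited (17.6%, against 25.6% of all tested rows) and 0 lower (against 1.0%). They were the sensors Atf6 and Ern1, the chaperones Canx and Hyou1, the degradation adaptor Sel1l and the channel subunit Sec61a1. Atf6 and Ern1 had under 1 FPKM in both wild-type libraries and reached the test only through the libraries labelled KO, so the direction of these 2 calls was set by the filter. After trimmed-mean scaling 1 of the 34 was called higher, Atf6 (2.94%, against 4.63%), and 3 were called lower (8.82%, against 5.17%), namely Sec61g, Srp9 and Srp14, which code for small proteins of the entry machinery. With quantile normalization 0 of the 34 were called higher (1.62% of all rows) and Sec61g alone lower (2.94%, against 0.695%). Among the 9584 rows with at least 1 FPKM in all 4 libraries, 11 of 32 ER genes were called higher (34.4%, against 31.7%) and Sec61g lower (3.12%, against 1.58%). In 23 of the 34 (67.6%) both libraries labelled KO lay above both wild-type libraries, against 58.5% of all tested rows, and in 3 (8.82%, against 12.1%) both lay below. The median ER gene changed by 0.54 on the log2 scale, 0.16 above the median row; 25 genes lay above the median row and 9 below. As a whole the genes were thus close to the background of this comparison. Within the set the median lay 0.50 above the median row for the sensors and Xbp1 (0.38 with Atf6 and Ern1 dropped by the stricter filter) and 0.46 above it for the lectin chaperones and Hyou1, and 0.62 below it for genes of signal recognition and signal peptidase. Leaving out WT 1 left 0 of the 34 called higher and leaving out KO 1 left 2, while leaving out WT 2 gave 11; with no filter on low values 0 were called. Summed markers of plasma, B, myeloid and erythroid cells were also higher in the libraries labelled KO, with values at the end, and their part in these counts was not tested.

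**Figure D1:**
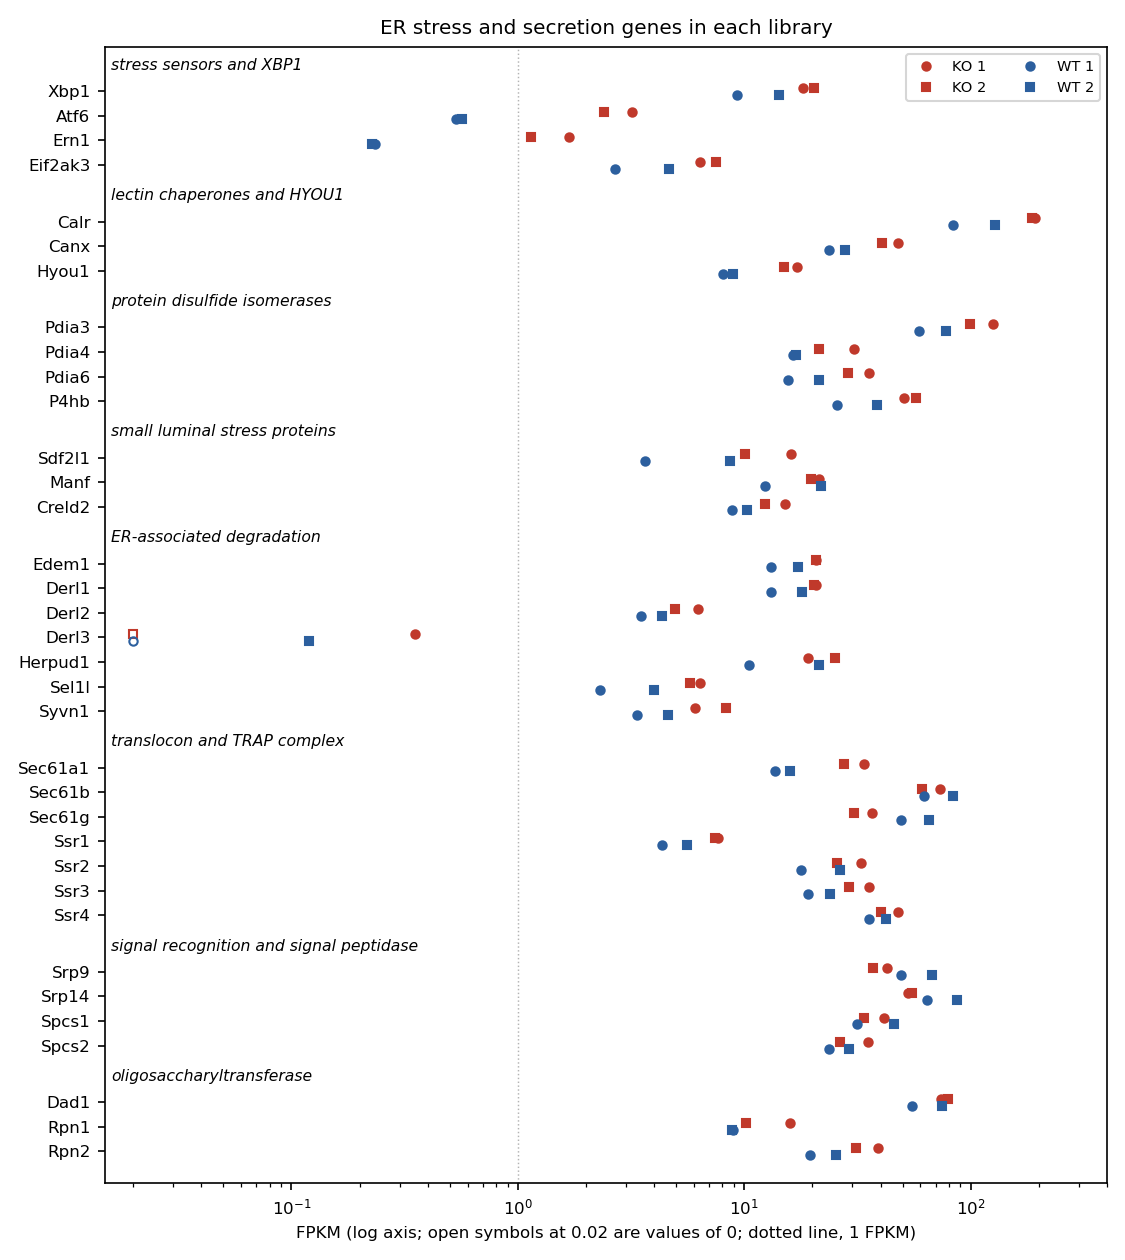
FPKM of each of the 35 genes in each library on a log axis, grouped by role; red symbols are KO 1 and KO 2, blue symbols WT 1 and WT 2. Atf6 and Ern1 lie above 1 FPKM in both libraries labelled KO and below it in both wild-type libraries, while Sec61g, Srp9 and Srp14 lie lower in both libraries labelled KO.

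The stress sensors and Xbp1, 4 genes, were higher in both libraries labelled KO than in both wild-type libraries, as were 58.5% of all tested rows, and Atf6 and Ern1 passed the test. Atf6, the membrane-bound sensor that becomes a transcription factor, was at 3.19 and 2.39 FPKM in KO 1 and KO 2, against 0.532 and 0.565 FPKM in WT 1 and WT 2. These levels rested on about 386 and 317 fragments in KO 1 and KO 2 and on 78.4 and 86.1 in WT 1 and WT 2. The groups lay far apart beside the spread within each. The means differed 5.08-fold, and the log2 change was 1.28 with an SE of 0.20 (adjusted p = 0.0137 by limma, and 0.04 after trimmed-mean scaling). The call for Atf6 was lost without WT 1 (limma adjusted p = 0.0866), with the log2 change still at 1.27, and after quantile normalization (0.0614), with the log2 change at 0.87. Ern1, which codes for the kinase and nuclease IRE1, was at 1.68 and 1.14 FPKM in KO 1 and KO 2 and at 0.235 and 0.227 FPKM in WT 1 and WT 2. It was 6.12-fold higher, with a log2 change of 0.96 ± 0.22 that the pseudocount of 1 holds down (limma adjusted p = 0.0238). It did not pass limma after trimmed-mean scaling (0.0624), without WT 1 (0.11), without WT 2 (0.0669), after quantile normalization (0.153) or with the length trend removed (0.0724). Without WT 1 or WT 2 its log2 change was still 0.97 and 0.96. Both genes reached the level for testing only through the libraries labelled KO, so they had to differ, and a stricter filter or leaving out a library labelled KO removes them from the test.

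Xbp1, the transcription factor whose mRNA IRE1 splices, was at 18.2 and 20.3 FPKM in KO 1 and KO 2, against 9.24 and 14.2 FPKM in WT 1 and WT 2. Its groups did not overlap, but the difference did not pass (log2 change 0.70 ± 0.24; limma adjusted p = 0.0714, and 0.0394 among rows with at least 1 FPKM in all libraries). A value per symbol does not tell spliced from unspliced Xbp1. Eif2ak3, the PERK kinase, was at 6.38 and 7.52 FPKM in KO 1 and KO 2 and at 2.68 and 4.65 FPKM in WT 1 and WT 2, also without overlap (log2 change 0.80 ± 0.24; limma adjusted p = 0.0514). Ern1 was the least abundant of these 4 genes in every library.

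Among the chaperones, the ER-resident lectins and HYOU1 were 1.71-fold to 1.89-fold higher in the means of the libraries labelled KO, and Canx and Hyou1 passed as deposited. Canx, the membrane-bound calnexin that holds glycoproteins during folding, was at 47.7 and 40.4 FPKM in KO 1 and KO 2 and at 23.7 and 28.0 FPKM in WT 1 and WT 2 (limma adjusted p = 0.0421). Hyou1, a large chaperone and exchange factor of BiP, the HSP70 of the ER, was at 17.0 and 15.0 FPKM in KO 1 and KO 2, against 8.03 and 8.91 FPKM in WT 1 and WT 2 (log2 change 0.84 ± 0.18; limma adjusted p = 0.0226). Relative to the median row Hyou1 was higher by 0.46 and Canx by 0.37, and after trimmed-mean scaling the 2 no longer passed (limma adjusted p = 0.123 for Hyou1 and 0.242 for Canx). Each call was also lost without WT 1 (limma adjusted p = 0.0987 for Hyou1 and 0.127 for Canx) and without KO 1 (0.104 and 0.339), and that for Canx without KO 2 (0.133) and with the length trend removed (0.0579). After quantile normalization both were lost too (limma adjusted p = 0.12 for Hyou1 and 0.106 for Canx). Calr, the soluble partner calreticulin and the most abundant of the 35 genes, reached 192 and 187 FPKM in KO 1 and KO 2, against 83.9 and 128 FPKM in WT 1 and WT 2. The groups did not overlap, but the wild-type libraries were far apart (limma adjusted p = 0.0554). Calr and Canx both carry the ERSE letters printed above.

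The 4 protein disulfide isomerases, which form and reshuffle disulfide bonds in the ER, had means in the libraries labelled KO between 1.56-fold (Pdia4) and 1.73-fold (Pdia6) those of wild type. Their groups did not overlap, as in 58.5% of all tested rows, and 0 of the 4 were called (25.6% of all rows were called higher). Pdia3, the isomerase that works with calnexin and calreticulin, was at 126 and 98.9 FPKM in KO 1 and KO 2, against 59.0 and 77.7 FPKM in WT 1 and WT 2 (limma adjusted p = 0.0766). P4hb, the founding member PDI, was at 50.9 and 57.1 FPKM in KO 1 and KO 2 and at 25.7 and 38.7 FPKM in WT 1 and WT 2 (limma adjusted p = 0.0676). In both, WT 2 lay between WT 1 and the libraries labelled KO. Pdia6, the one isomerase gene with the ERSE letters, was at 35.5 and 28.6 FPKM in KO 1 and KO 2 and at 15.7 and 21.5 FPKM in WT 1 and WT 2 (limma adjusted p = 0.0528). Pdia4, which has several thioredoxin domains, was at 30.5 and 21.3 FPKM in KO 1 and KO 2 and at 16.4 and 16.9 FPKM in WT 1 and WT 2 (limma adjusted p = 0.0969).

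Of the 3 small luminal stress proteins, 0 passed the test as deposited, where 25.6% of all tested rows were called higher. Sdf2l1, a cofactor of ER chaperones, was at 16.1 and 10.1 FPKM in KO 1 and KO 2, against 3.65 and 8.67 FPKM in WT 1 and WT 2, with a wide error (log2 change 1.04 ± 0.37; limma adjusted p = 0.0812). Creld2, a secreted stress-induced protein with the ERSE letters in its promoter, was at 15.1 and 12.3 FPKM in KO 1 and KO 2 and at 8.82 and 10.3 FPKM in WT 1 and WT 2, 0.10 above the median row (limma adjusted p = 0.113). Manf, a small stress-induced secreted factor, overlapped between the groups, with 21.3 and 19.7 FPKM in KO 1 and KO 2 and 12.3 and 21.8 FPKM in WT 1 and WT 2 (limma adjusted p = 0.429).

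ER-associated degradation, which pulls misfolded proteins back into the cytosol, had 1 call among its 6 tested members (16.7%, against 25.6% of all tested rows). Sel1l, the adaptor that steadies the ubiquitin ligase HRD1, was at 6.37 and 5.73 FPKM in KO 1 and KO 2, against 2.31 and 4.0 FPKM in WT 1 and WT 2 (log2 change 0.79 ± 0.23; limma adjusted p = 0.0475). This call lay close to the threshold and was lost without WT 1 (limma adjusted p = 0.169), without KO 1 (0.0611), with a pseudocount of 0.1 (0.0566), with no intensity trend (0.0541), with the length trend removed (0.115), after quantile normalization (0.3) and after trimmed-mean scaling (0.215). Syvn1, the ligase HRD1 itself, was at 6.04 and 8.32 FPKM in KO 1 and KO 2 and at 3.37 and 4.59 FPKM in WT 1 and WT 2, so that the groups did not overlap (limma adjusted p = 0.0539). Edem1, a lectin that picks misfolded glycoproteins, was at 20.7 FPKM in both KO 1 and KO 2, against 13.2 and 17.2 FPKM in WT 1 and WT 2 (limma adjusted p = 0.156). The derlins Derl1 and Derl2, membrane proteins of the exit route, had log2 changes of 0.39 and 0.42, only 0.01 and 0.04 above the median row.

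Herpud1, a scaffold of the same ligase and the gene with ERSE-II letters, was at 19.1 and 25.3 FPKM in KO 1 and KO 2 and at 10.5 and 21.4 FPKM in WT 1 and WT 2, which overlapped (limma adjusted p = 0.269). Derl3, the derlin of secretory cells, was at or near 0: 0.350 FPKM and 0 in KO 1 and KO 2, against 0 and 0.119 FPKM in WT 1 and WT 2. That corresponds to at most 6.76 fragments in a library, and the gene was not tested although its promoter carries the ERSE letters.

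Within the SEC61 channel the subunits differed. Sec61a1, the pore-forming subunit, was called higher, at 33.9 and 27.6 FPKM in KO 1 and KO 2, against 13.7 and 16.0 FPKM in WT 1 and WT 2 (2.07-fold; log2 change 1.0 ± 0.21; limma adjusted p = 0.0208). Sec61g, the small gamma subunit, was at 36.5 and 30.6 FPKM in KO 1 and KO 2, against 49.1 and 65.7 FPKM in WT 1 and WT 2, lower in both libraries labelled KO. Its log2 change was -0.75 ± 0.24 as deposited (limma adjusted p = 0.0568) and -1.22 ± 0.17 after trimmed-mean scaling, where it was called lower (0.0209). Sec61b, the beta subunit, overlapped, with 73.0 and 61.0 FPKM in KO 1 and KO 2 and 62.4 and 83.4 FPKM in WT 1 and WT 2 (limma adjusted p = 0.749). The call for Sec61a1 was lost after trimmed-mean scaling (limma adjusted p = 0.0728), after quantile normalization (0.0696), without WT 1 (0.098) and without KO 1 (0.111).

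A ratio of 2 genes within a library does not change when the library is multiplied by a factor. The ratio of Sec61a1 to Sec61g was 0.928 and 0.9 in KO 1 and KO 2, against 0.278 and 0.243 in WT 1 and WT 2, while that of Sec61a1 to Sec61b was 0.464 and 0.452 in KO 1 and KO 2, against 0.219 and 0.192 in WT 1 and WT 2. In both ratios the libraries of a group lay close together and the groups were well apart. The pairs of genes, 13 in all, were picked after their values were seen, so the ratios are a description with no test. The groups overlapped in 4 of the 13, those of Calr to Canx, Rpn1 to Dad1, Ddit3 to Atf4 and Hspa5 to Hyou1. The ratio of Rpn1 to Dad1 was 0.215 and 0.127 in KO 1 and KO 2, against 0.163 and 0.118 in WT 1 and WT 2. A ratio shows unequal change and not which gene moved.

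**Figure D2:**
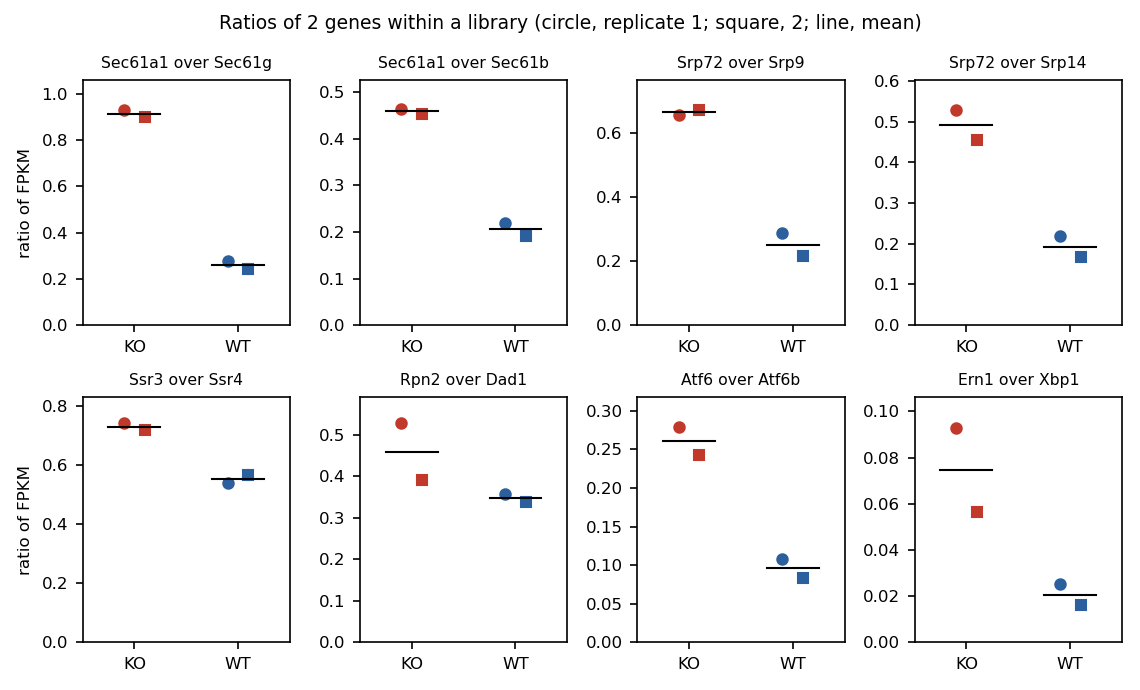
Ratio of the FPKM of 2 genes within each library, for 8 pairs of genes; red, the libraries labelled KO; blue, wild type; the line is the mean of the 2 libraries. The ratio of Sec61a1 to Sec61g lies at 0.928 and 0.9 in KO 1 and KO 2 and at 0.278 and 0.243 in WT 1 and WT 2. The 8 pairs were picked from 13 after the values were seen, and pairs whose groups overlap are not shown. Atf6 and Ern1 reached the test only through the libraries labelled KO, so a higher ratio there follows in part from the filter.

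The 4 genes of the TRAP complex, which sits beside the channel and helps some proteins through, gave no call. As deposited, 25.6% of all tested rows were called higher. Ssr1 and Ssr3 were higher in both libraries labelled KO than in both wild-type libraries, by 0.53 ± 0.19 and 0.56 ± 0.22 on the log2 scale (limma adjusted p = 0.0762 and 0.0991). Ssr2 and Ssr4 overlapped between the groups. Ssr4 was at 47.6 and 40.3 FPKM in KO 1 and KO 2 and at 35.5 and 42.1 FPKM in WT 1 and WT 2, which left it 0.20 below the median row (limma adjusted p = 0.558).

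Genes of signal recognition and signal peptide removal had the lowest median of the 8 roles, and all 4 lay below the median row. Srp9, which with SRP14 forms the part of the signal recognition particle that pauses translation, was at 42.7 and 37.0 FPKM in KO 1 and KO 2, against 49.0 and 67.2 FPKM in WT 1 and WT 2. Srp14 was at 53.0 and 54.9 FPKM in KO 1 and KO 2 and at 64.3 and 87.0 FPKM in WT 1 and WT 2. In both genes the wild-type libraries were the higher ones, without overlap. Their log2 changes were -0.52 ± 0.24 and -0.46 ± 0.23, which did not pass as deposited (limma adjusted p = 0.144 and 0.174) and did after trimmed-mean scaling (0.0319 and 0.0335). With the length trend removed their log2 changes were -0.39 and -0.19 (limma adjusted p = 0.213 and 0.518). Srp72, a larger protein of the same particle from the wider list below, was called higher as deposited, and its ratio to Srp9 was 0.657 and 0.673 in KO 1 and KO 2, against 0.287 and 0.216 in WT 1 and WT 2. The signal peptidase subunits Spcs1 and Spcs2 overlapped, with log2 changes of -0.02 ± 0.25 and 0.21 ± 0.23 (limma adjusted p = 0.959 and 0.513).

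Oligosaccharyltransferase, which adds sugar chains to proteins as they enter, had 3 members and no call (25.6% of all tested rows were called higher). Rpn2, a subunit with a large luminal domain, was at 39.1 and 31.1 FPKM in KO 1 and KO 2, against 19.6 and 25.3 FPKM in WT 1 and WT 2 (limma adjusted p = 0.0837). Rpn1, another large subunit, was at 15.9 and 10.1 FPKM in KO 1 and KO 2 and at 8.95 and 8.83 FPKM in WT 1 and WT 2, with the 2 libraries labelled KO far apart (limma adjusted p = 0.173). Dad1, the small subunit first named as a defender against cell death, overlapped at 74.1 and 79.6 FPKM in KO 1 and KO 2 and 54.8 and 75.0 FPKM in WT 1 and WT 2 (limma adjusted p = 0.436).

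**Figure D3:**
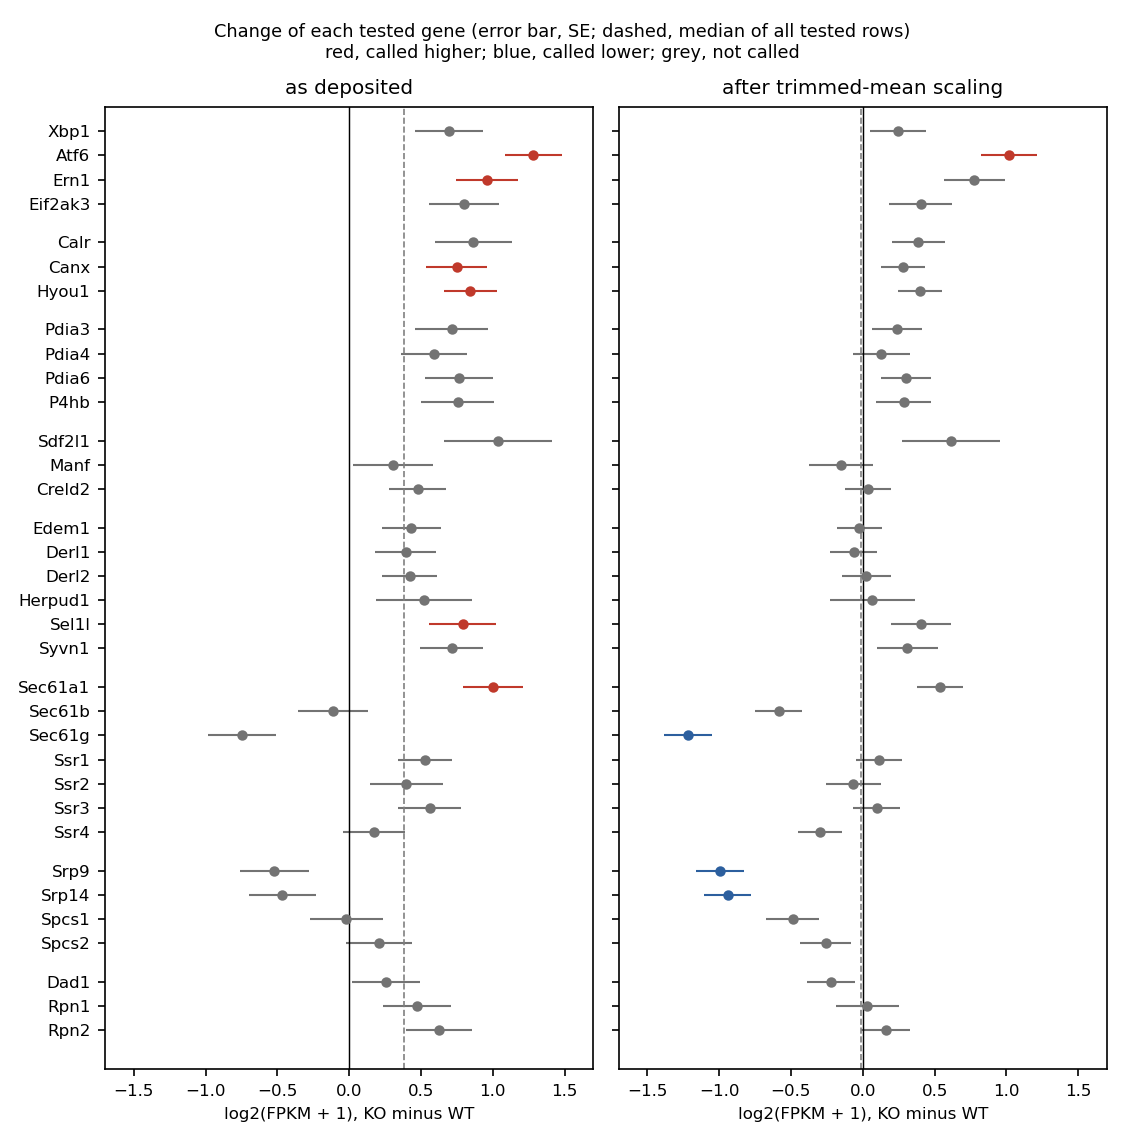
Log2 change (KO minus WT, log2(FPKM + 1)) with its SE for the 34 tested genes as deposited and after trimmed-mean scaling; red, called higher; blue, called lower; the dashed line is the median of all tested rows. As deposited 6 genes are called higher; after scaling Atf6 is called higher and Sec61g, Srp9 and Srp14 lower.

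Log2 changes were larger for genes with longer coding parts. Over the 34 genes the log2 change correlated with the log of the coding length at a Pearson r of 0.805 (Spearman rho 0.764), against 0.363 (0.391) over the 10232 tested coding rows. These are correlations across genes of the same 4 libraries, and genes are not independent replicates. The 6 genes with a coding part under 500 nt (Sec61g, Srp9, Sec61b, Spcs1, Srp14 and Dad1, of 68 to 113 residues) had log2 changes of -0.75 to 0.26 with a median of -0.29, against a median of 0.02 over 1043 such rows. The other 28 lay between 0.17 and 1.28 with a median of 0.66, against a median of 0.44 over 9189 rows. The split at 500 nt was made after the values were seen. Sdf2l1, with 221 residues, had a log2 change of 1.04 ± 0.37 and Spcs2, with 226, one of 0.21 ± 0.23, neither called. With the log of the whole transcript length the Pearson r was lower, at 0.678 over the 34 genes and 0.305 over the 10232 rows. Each library was corrected for its trend with this transcript length, not with coding length. Then 7 of the 34 were called higher (20.6%, against 22.8% of all rows) and 0 lower (against 0.763%). The log2 change of Sec61g was then -0.38 (limma adjusted p = 0.203). Length and role go together among these genes and cannot be told apart.

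**Figure D4:**
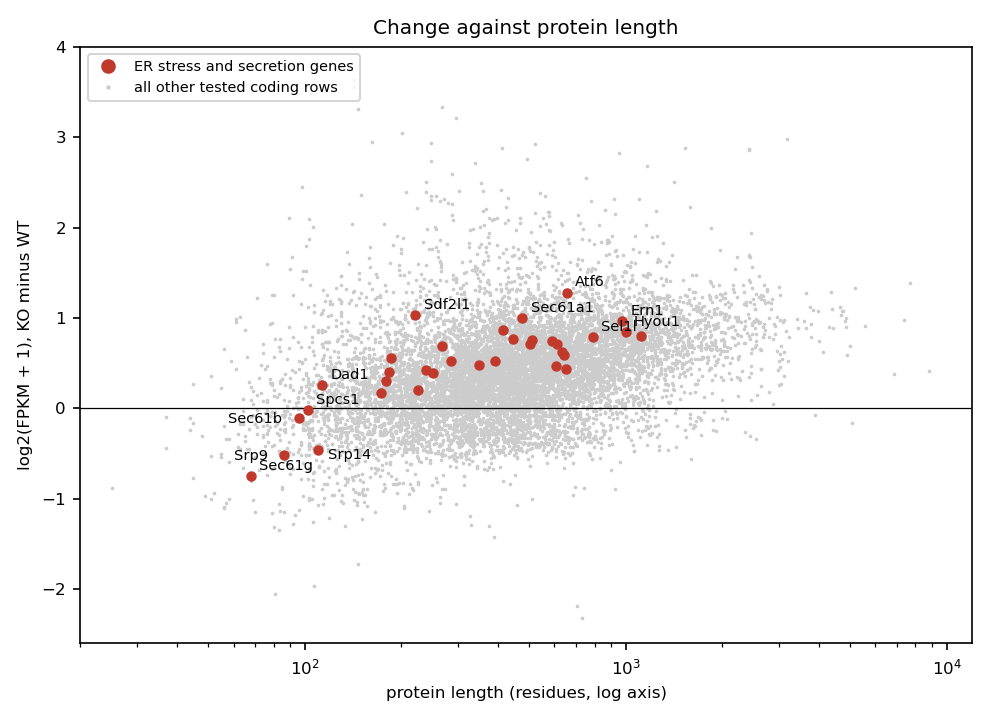
Log2 change (KO minus WT) against protein length on a log axis; red, the 34 tested ER genes; grey, all other tested coding rows. The genes of 68 to 113 residues lie between -0.75 and 0.26, and the other 28 between 0.17 and 1.28.

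Values also differed within groups. WT 2 was above WT 1 for 33 of the 35 genes (94.3%), against 68.2% of all tested rows, and KO 1 above KO 2 for 27 (77.1%, against 58.0%). The FPKM of the 35 genes summed to 1229 and 1101 in KO 1 and KO 2 and to 769 and 1050 in WT 1 and WT 2. In this sum WT 2 lay nearer to the libraries labelled KO than WT 1 did. Some genes were higher in replicate 2 of both groups, such as Herpud1 and, from the wider lists below, Hspa5, Dnajb9, Atf4 and Ppp1r15a. The replicate numbers mark no shared mouse or day in the labels, and the cause was not tested.

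Other genes of the pathway stood on 74 rows, of which 69 were tested. As deposited 22 were called higher (31.9%, against 25.6% of all rows) and 0 lower. After trimmed-mean scaling 0 were called higher and 3 lower (4.35%, against 5.17%). In the list of ER chaperones and folding enzymes 4 of 13 were called higher. Txndc5, a disulfide isomerase, was at 15.8 and 12.3 FPKM in KO 1 and KO 2, against 5.83 and 6.32 FPKM in WT 1 and WT 2 (limma adjusted p = 0.0164). Uggt1, which checks the folding of glycoproteins, was at 11.1 and 9.64 FPKM in KO 1 and KO 2 and at 4.43 and 5.09 FPKM in WT 1 and WT 2 (0.0168, limma), and Ero1l, the oxidase that recharges PDI, was called as well (0.0215, limma). Hspa5 and Hsp90b1, both abundant ER chaperones, did not pass. Hspa5, the ER chaperone BiP, was at 261 and 378 FPKM in KO 1 and KO 2, against 149 and 298 FPKM in WT 1 and WT 2, which overlapped (limma adjusted p = 0.286). Dnajb9, a cofactor of BiP, overlapped too, at 25 and 62.0 FPKM in KO 1 and KO 2 and at 31.5 and 81.0 FPKM in WT 1 and WT 2 (limma adjusted p = 0.641). Hsp90b1, the ER member of the HSP90 family, was at 133 and 95.0 FPKM in KO 1 and KO 2 and at 61.0 and 81.7 FPKM in WT 1 and WT 2 (limma adjusted p = 0.111).

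Genes downstream of PERK gave no call higher. Ddit3, the transcription factor CHOP of prolonged stress, was at 15.3 and 16.3 FPKM in KO 1 and KO 2, against 21.3 and 21.9 FPKM in WT 1 and WT 2. It was called lower after trimmed-mean scaling (limma adjusted p = 0.0355) and not as deposited (0.125). Atf4, which PERK signalling raises through translation, overlapped at 72.7 and 124 FPKM in KO 1 and KO 2 and 79.8 and 132 FPKM in WT 1 and WT 2 (limma adjusted p = 0.825). Ppp1r15a, which codes for the phosphatase subunit that undoes PERK's signal, overlapped at 146 and 233 FPKM in KO 1 and KO 2 and 105 and 166 FPKM in WT 1 and WT 2 (limma adjusted p = 0.306). Chac1, a target of that arm, was listed at 0 in all 4 libraries. The same list held 2 calls as deposited out of 7 tested (28.6%, against 25.6% of all tested rows), Atf6b and Mbtps1. Atf6b, a relative of ATF6, was at 11.4 and 9.88 FPKM in KO 1 and KO 2 and 4.92 and 6.76 FPKM in WT 1 and WT 2 (limma adjusted p = 0.0356), and Mbtps1 codes for a protease that cuts ATF6 (0.0374, limma). Neither passed after trimmed-mean scaling (limma adjusted p = 0.192 and 0.414).

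Degradation genes outside the 35 had 6 calls higher among 10 (25.6% of all tested rows were called). All 10 were higher in both libraries labelled KO than in both wild-type libraries, as were 58.5% of all rows. Ube2g2, a ubiquitin-conjugating enzyme of the ER, was at 17.0 and 16.4 FPKM in KO 1 and KO 2, against 7.41 and 9.28 FPKM in WT 1 and WT 2 (limma adjusted p = 0.0205). Os9, a lectin of the HRD1 complex, was at 32.4 and 31.3 FPKM in KO 1 and KO 2 and at 17.3 and 16.2 FPKM in WT 1 and WT 2 (0.0212, limma), and Faf2 was called too (0.0221, limma). Against the same 25.6% of all rows, 2 of 14 rows of targeting and channel genes were called higher, Srpr and Srp72 (limma adjusted p = 0.0179 and 0.0237). Among N-glycosylation genes 3 of 10 were (Ganab, Stt3a and Prkcsh; 0.0184, 0.0208 and 0.0459, limma), and among ER to Golgi transport genes 5 of 15, led by Sec31a of the COPII coat, Lman1, a cargo receptor, and Sec24d (0.0179, 0.0182 and 0.0298, limma). After trimmed-mean scaling the 2 other calls lower were Sec11a, a signal peptidase subunit, and Krtcap2, a small oligosaccharyltransferase subunit (limma adjusted p = 0.0409 and 0.0358).

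Markers of other cell types differed between the groups as well. Counts of calls below are as deposited unless stated, where 25.6% of all tested rows were called higher. After trimmed-mean scaling, 4.63% of all rows were called higher. The marker rows then called higher were 1 of 5 for plasma cells, 1 of 3 for B cells and 0 of 2 for macrophages. For CD8 T and NK cells 1 of 3 was called higher, and for erythroid cells 2 of 7. Txndc5, Cd22 and Lyz2 lost their calls. In bulk RNA, more cells of a type and more RNA per cell cannot be told apart. The 9 plasma cell markers summed to 38.1 and 44.9 FPKM in KO 1 and KO 2 and to 13.6 and 21.1 FPKM in WT 1 and WT 2, with 2 of 5 tested called higher (Prdm1 and Txndc5, which T cells can also express). Txndc5, Irf4 and Prdm1 made up most of the sum in each library. Prdm1 reached the test only through the libraries labelled KO. The joining chain gene Igj was at 6.65 and 9.49 FPKM in KO 1 and KO 2 and at 3.96 and 5.36 FPKM in WT 1 and WT 2 (limma adjusted p = 0.0693), and Irf4 at 6.94 and 16.4 FPKM in KO 1 and KO 2 and at 1.04 and 5.39 FPKM in WT 1 and WT 2 (0.0659, limma). Defining plasma cell genes were low. Tnfrsf17 was at 0.186 and 0.256 FPKM in KO 1 and KO 2 and listed at 0 in WT 1 and WT 2. Sdc1 was at 0.477 and 0.820 FPKM in KO 1 and KO 2 and at 1.01 and 0.775 FPKM in WT 1 and WT 2. Fkbp11 overlapped, at 0 and 0.487 FPKM in KO 1 and KO 2 and at 0.0873 and 1.27 FPKM in WT 1 and WT 2. The 9 B cell markers summed to 15.1 and 14.2 FPKM in KO 1 and KO 2 and to 6.93 and 7.41 FPKM in WT 1 and WT 2, with 2 of 3 tested called higher, Cd22 and Cd79b. Cd79b reached the test only through the libraries labelled KO, and among rows with at least 1 FPKM in all libraries 1 of 2 was called. Cd79a, also tested, overlapped, at 2.93 and 4.90 FPKM in KO 1 and KO 2 and at 3.19 and 3.13 FPKM in WT 1 and WT 2 (limma adjusted p = 0.509). It lay 0.17 below the median row. Pax5 and Ebf1, low in all libraries, overlapped and had lower means in the libraries labelled KO. The 8 macrophage markers summed to 7.11 and 7.91 FPKM in KO 1 and KO 2 and to 2.13 and 3.27 FPKM in WT 1 and WT 2, with 1 of 2 tested called higher. That was Lyz2, at 2.99 and 4.38 FPKM in KO 1 and KO 2 and at 0.164 and 1.53 FPKM in WT 1 and WT 2. Cd68 was at 2.25 and 1.55 FPKM in KO 1 and KO 2 and at 1.04 and 0.952 FPKM in WT 1 and WT 2. Mpeg1 was at 0.864 and 0.453 FPKM in KO 1 and KO 2 and at 0.0563 and 0.0982 FPKM in WT 1 and WT 2. Itgam overlapped, at 0.430 and 0.533 FPKM in KO 1 and KO 2 and at 0.606 and 0.404 FPKM in WT 1 and WT 2. Csf1r and Emr1, also low, overlapped too. Cd14, a defining monocyte gene, was at 0.263 FPKM in KO 1 and listed at 0 in KO 2, WT 1 and WT 2. The 6 markers of CD8 T and NK cells summed to 38.2 and 35.4 FPKM in KO 1 and KO 2, against 23.9 and 22.0 FPKM in WT 1 and WT 2, with 1 of 3 tested called higher. That was Nkg7, at 25.4 and 22.7 FPKM in KO 1 and KO 2 and at 10.2 and 9.38 FPKM in WT 1 and WT 2. Cd8b1 overlapped, at 10.3 and 11.3 FPKM in KO 1 and KO 2 and at 10.9 and 10.5 FPKM in WT 1 and WT 2. Klrk1 was at 0.844 and 0.634 FPKM in KO 1 and KO 2 and at 1.35 and 1.27 FPKM in WT 1 and WT 2. The 10 erythroid rows summed to 561 and 450 FPKM in KO 1 and KO 2, against 9.91 and 146 FPKM in WT 1 and WT 2, with 7 of 7 tested called higher and 4 of 4 among rows with at least 1 FPKM in all libraries.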

How the data were processed

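Per the submitters' processing notes, Bowtie 0.12.2 and the genome build mm8 were used for the 4 libraries. A name for the quantifying program or its annotation was not given in the sources used here. For each library the authors deposited 1 FPKM value per row, per the file headers. Rows were joined by position (the order of symbols was the same in all tables). Rows with at least 1 FPKM in at least 2 libraries were tested in R 4.3.3 on log2(FPKM + 1) with limma 3.58.1 (two-sided, trend on intensity), with Benjamini-Hochberg adjustment over all rows tested and a threshold of 0.05. The log2(FPKM + 1) scale understates changes of low genes; folds are ratios of mean FPKM. Trimmed-mean scaling (30% of ratios and 5% of levels trimmed at each side) used factors of 1.21 and 1.16 in KO 1 and KO 2 and of 0.79 and 0.905 in WT 1 and WT 2. No count test was run, since the deposited values are FPKM. At the depths given and an assumed fragment of 200 nt, 72.2% to 74.7% of low values (0.005 to 0.15 FPKM) in genes with 1 transcript lay within 5% of a whole number.

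Lengths and coding parts were those of the principal transcript of GENCODE M21 (GRCm38), another build than mm8, so no position is given for rows; promoter coordinates are those of RefSeq on GRCm38.p6. Of 29 promoters, 26 had bases 21 to 50 after the start in a GENCODE transcript of the gene. On simulated data for this comparison (11074 genes, 10 runs) 23.3% of genes with a 2-fold change and 90.9% with a 4-fold change were called, and 3.79% of calls were false. Each run changed a small share of rows, up or down at random, with no shift common to a library. In the real data the median row was higher by 0.38 in the libraries labelled KO as deposited, so these rates need not hold there.

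Every one of the 35 genes is named. Of the other lists, Hspa5, Hsp90b1 and up to 3 genes of each with the smallest unadjusted p are named, and of marker lists up to 3 of the most abundant genes. Values per library were due for called members and for the 2 most abundant uncalled members of each role; those of other members were added after they were seen. The markers Cd3d, Cd3g, Tnfrsf17, Sdc1, Fkbp11, Pax5, Ebf1, Mpeg1, Cd14, Itgam, Csf1r and Emr1 and the ratios were chosen after their values were seen. So were Dnajb9, Atf4, Ppp1r15a, Chac1, Sec11a, Krtcap2, Prkcsh and the length split. The members and lists were chosen with earlier results of these data known. Vimp and Trac had no row. Other steps used numpy 2.4.6, pandas 2.3.3 and matplotlib 3.10.9 under Python 3.11.15.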

Additional observations from a re-analysis of the deposited data

How the results depend on the processing

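The direction relative to the median row was kept under every alternative run. On leaving out 1 library the median of the ER genes lay above the median row by 0.09 to 0.22. With no filter it lay 0.50 above, but most of the 23700 rows were then below the level for testing. Their median was 0.03, so that run is no separate check of the direction. The number of ER genes called higher, 6 as deposited, lay between 0 and 11 when 1 library was left out. It was 14 with the replicate number as a block, 0 with no filter, 11 among rows with at least 1 FPKM in all libraries, 1 with trimmed-mean scaling and 0 with quantile normalization. The number called lower, 0 as deposited, stayed at 0 on leaving out 1 library and was 1 with the replicate block, 1 with the stricter filter, 3 with trimmed-mean scaling, 1 with quantile normalization and 1 with no intensity trend. Over all rows, there were 9 to 2189 calls higher and 0 to 123 lower when 1 library was left out. The fewest came without WT 1, where 3069 rows were higher and 340 lower by limma's p before adjustment (0.05). Without a filter limma called 0 rows in either direction, against 4281 higher and 707 lower before adjustment. After trimmed-mean scaling the counts were 513 and 573, after quantile normalization 179 higher, and with the replicate block 230 lower.

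Signs turned for 19 values of 10 genes, none of them called. After trimmed-mean scaling the log2 changes were -0.15 for Manf, -0.024 for Edem1, -0.064 for Derl1, -0.065 for Ssr2, -0.30 for Ssr4, -0.26 for Spcs2 and -0.22 for Dad1. After quantile normalization they were -0.084 for Manf, -0.052 for Derl2, -0.13 for Ssr4, -0.11 for Spcs2 and -0.0019 for Dad1. On leaving out 1 library Manf lay between -0.082 (without WT 1) and 0.69, Sec61b between -0.32 and 0.10 (without WT 2), and Spcs1 between -0.28 and 0.24 (without WT 2). Without KO 2 Sec61b was also above 0, at 0.017, and Spcs1, at 0.13. With the length trend removed they were at 0.23 and 0.28.

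The deviations of same-numbered libraries from their group means correlated at 0.108 across rows. With 2 numbers, this value cannot tell whether same-numbered libraries shared a mouse or a day. With fragments of about 17200000 to 21600000 a library, Ern1 rested on 33.1 fragments in each wild-type library, and Derl3 was not detectable in 2 of the 4 libraries. The causes of these shifts were not tested.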
